A study of Mus musculus with 8 samples.

Results

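The caspase genes *Casp1*, *Casp2*, *Casp4*, *Casp6*, *Casp8*, *Casp9* and *Casp12* were followed in RNA-seq libraries of the mouse line NMuMG, epithelial cells derived from normal mammary gland. They were taken by symbol from the 37310 genes of the count table and were chosen by the level of *Casp1*, which is higher in the knockout libraries, so the genotype values of *Casp1* are a description without a test. All 7 were in the table, and 5 had enough counts to be among the 13028 genes tested, with *Casp4* and *Casp12* falling below the filter. The 8 libraries were 2 biological replicates of each of 4 conditions. Control cells were untreated (control) or given 10 ng/ml TGF-β1 for 2 h (control_TGFb2h), and cells with a CRISPR-Cas9 deletion at the *Lnc-Nr6a1* promoter and first exon were likewise untreated (KO) or given TGF-β1 (KO_TGFb2h). According to the methods, the deleted cells were grown from single sorted cells, and the number of clones sequenced is not given in the sources used here, so that clone and deletion cannot be told apart. *Lnc-Nr6a1*, listed as Gm13507, had 3 and 14 counts in control, 25 and 35 in control_TGFb2h, 11 and 7 in KO, and 0 in both KO_TGFb2h libraries. In untreated cells its counts thus overlapped between the genotypes, against the labels, and the libraries are called by their labels throughout. The comparisons below share libraries, so their values are not independent of each other.

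Caspases are proteases with a cysteine in the active site that cut their substrates after aspartate, and they are made as inactive proenzymes. Initiator caspases are activated on adaptor platforms, caspase-8 at death receptors, caspase-9 on the apoptosome and caspase-2 on the PIDDosome, and they in turn cleave executioner caspases such as caspase-6. Inflammatory caspases act elsewhere: caspase-1 is activated in inflammasomes, matures the cytokines IL-1β and IL-18 and cleaves gasdermin D, whose pores lyse the cell. Because activation is by cleavage, the RNA level of a caspase gives the amount of its transcript and not the activity of the enzyme.

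Depth ranged from 4297832 counts in a KO library to 13574397 in a KO_TGFb2h library. In these libraries 3 counts, the smallest level taken as shown, corresponded to 0.661 and 0.238 CPM (counts scaled by library total and TMM factor). Of the 7 epithelial markers, *Krt8*, *Krt18* and *Cdh1* were abundant, while *Cldn3* had no counts and *Epcam* had 2 counts in a single library; the sum over the list was 4860 to 4983 CPM in control, 7088 to 10012 in control_TGFb2h, 5332 to 5594 in KO and 6688 to 9122 in KO_TGFb2h. The 8 leukocyte and macrophage markers summed to 3.54 to 3.98 CPM in control, 3.56 to 4.76 in control_TGFb2h, 5.73 to 5.98 in KO and 2.30 to 2.61 in KO_TGFb2h, most of it *Cd68*, with *Csf1r* at 15 and 9 counts in control_TGFb2h and 0 and 1 in KO_TGFb2h, *Tyrobp* and *Adgre1* (listed as Emr1) at 0 and *Ptprc* at no more than 2 counts in any library. The 6 fibroblast markers summed to 1.45 to 2.08 CPM in control, 3.09 to 4.44 in control_TGFb2h, 0.797 to 4.85 in KO and 4.61 to 4.73 in KO_TGFb2h.

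The inflammatory members lie side by side on the plus strand of chromosome 9 (NCBIM37): *Casp1* at 5298517 to 5307265, *Casp4* (the murine caspase-11 gene) at 5308828 to 5336783 and *Casp12* at 5345476 to 5373032. Within 250 kb of *Casp1* the annotation holds only these genes and the small nucleolar RNA *SNORA16*. The windows around their start sites are printed because these neighbours share a locus but not a level in the counts. Each runs from 250 bases before to 50 bases after the RefSeq start (RefSeq of GRCm38.p6, found once and without mismatch in NCBIM37 at the coordinates given). Both strands were searched for the AP-1 motif TGANTCA, the interferon response motif (GAAA and again GAAA, 2 bases apart), the STAT motif TTCNNNGAA, the NF-κB motif (GGG and CC, 5 bases apart), the SMAD palindrome GTCTAGAC and the TATA motif TATAAA, and capitals mark the matches.
Casp1 (chr9:5298267-5298566): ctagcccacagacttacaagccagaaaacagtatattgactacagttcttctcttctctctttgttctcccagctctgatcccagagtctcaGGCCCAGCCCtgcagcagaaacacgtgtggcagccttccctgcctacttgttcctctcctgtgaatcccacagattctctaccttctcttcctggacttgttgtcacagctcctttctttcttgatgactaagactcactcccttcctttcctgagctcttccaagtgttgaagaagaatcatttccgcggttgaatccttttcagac
Casp4 (chr9:5308599-5308898): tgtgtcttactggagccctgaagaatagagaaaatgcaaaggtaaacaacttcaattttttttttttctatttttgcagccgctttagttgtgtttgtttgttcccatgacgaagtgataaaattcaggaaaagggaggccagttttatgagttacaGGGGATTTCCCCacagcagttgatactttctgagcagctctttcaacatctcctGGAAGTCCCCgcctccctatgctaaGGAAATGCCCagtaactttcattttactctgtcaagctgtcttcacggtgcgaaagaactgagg
Casp12 (chr9:5345226-5345525): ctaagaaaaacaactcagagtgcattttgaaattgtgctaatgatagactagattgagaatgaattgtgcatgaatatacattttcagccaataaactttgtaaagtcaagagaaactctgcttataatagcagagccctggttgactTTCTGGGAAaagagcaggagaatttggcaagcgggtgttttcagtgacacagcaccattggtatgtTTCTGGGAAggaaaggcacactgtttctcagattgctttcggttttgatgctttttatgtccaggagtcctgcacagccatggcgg
The *Casp1* window held a single match, to the NF-κB motif, which was found in 50.8% of 32851 windows of this length. The *Casp4* window held 5 matches to the same motif, 3 of them overlapping, and the *Casp12* window held 2 matches to the STAT motif, found in 8.3% of windows. AP-1, interferon response, SMAD and TATA motifs, with shares of 7.81%, 3.44%, 0.213% and 13.6%, had no match in these windows. The matches are a description of the letters and not of bound sites.

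*Casp1* was nearly uncounted in control cells and clearly counted in every library labelled KO. It had 3 and 3 counts in control, 2 and 2 in control_TGFb2h, 43 and 47 in KO, and 77 and 62 in KO_TGFb2h. As levels these were 0.362 and 0.366 CPM, 0.187 and 0.212 CPM, 9.48 and 6.25 CPM, and 6.28 and 4.93 CPM. All 4 libraries labelled KO were above all 4 control libraries, whose levels were at or below that of 3 counts. In bulk RNA, more cells with *Casp1* transcripts and more transcripts per cell cannot be told apart. The ratio of summed counts, scaled to library size, was 20.5 between KO and control (exact 95% counting interval 9.06 to 57.3) and 28.1 after TGF-β (10.7 to 105), the intervals covering counting error only. On the log2 scale of the fit the differences were 4.37 (SE 0.51) and 4.72 (SE 0.53), and 4.00 and 4.04 with all libraries thinned to the smallest total. *Casp1* passed the filter through the libraries labelled KO, and its genotype difference chose the family, so nothing is read from its size. The summed leukocyte and macrophage markers were higher in KO than in control and lower in KO_TGFb2h than in control_TGFb2h. The fibroblast sums overlapped between the untreated genotypes and were higher in KO_TGFb2h than in control_TGFb2h. The part of these markers in the level of *Casp1* was not tested.

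Its neighbours stayed near the limit of detection. *Casp12*, whose product is an inflammatory caspase of the endoplasmic reticulum, had 1 and 0 counts in control, 1 and 0 in control_TGFb2h, 4 and 9 in KO, and 5 and 7 in KO_TGFb2h. The libraries labelled KO did not overlap with the control libraries of the same treatment. The ratio of summed counts was 17.8 (exact 95% counting interval 2.67 to 755) without and 9.72 (1.44 to 415) with TGF-β. *Casp4*, which encodes a sensor of cytosolic lipopolysaccharide, had 1 and 0 counts in control, 0 and 0 in control_TGFb2h, 3 and 0 in KO, and 6 and 3 in KO_TGFb2h. The 0 counts of control_TGFb2h allow up to 0.281 and 0.317 CPM, beside 0.489 and 0.238 CPM in KO_TGFb2h. With 9 against 0 summed counts after TGF-β, the exact 95% counting interval of the ratio began at 1.60, while in untreated cells 3 against 1 counts gave 0.329 to 215. These intervals, like those of *Casp12*, cover counting error only and leave out the spread between libraries. Without the filter on low counts neither gene was called in any comparison. Per kilobase of exon, the level of *Casp12* in KO, 0.274 ± 0.0586 CPM per kb (SD, n = 2), was in the range of *Casp1* in control cells, 0.243 ± 0.00204, and far below that of *Casp1* in KO, 5.25 ± 1.53.

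**Figure D1:**
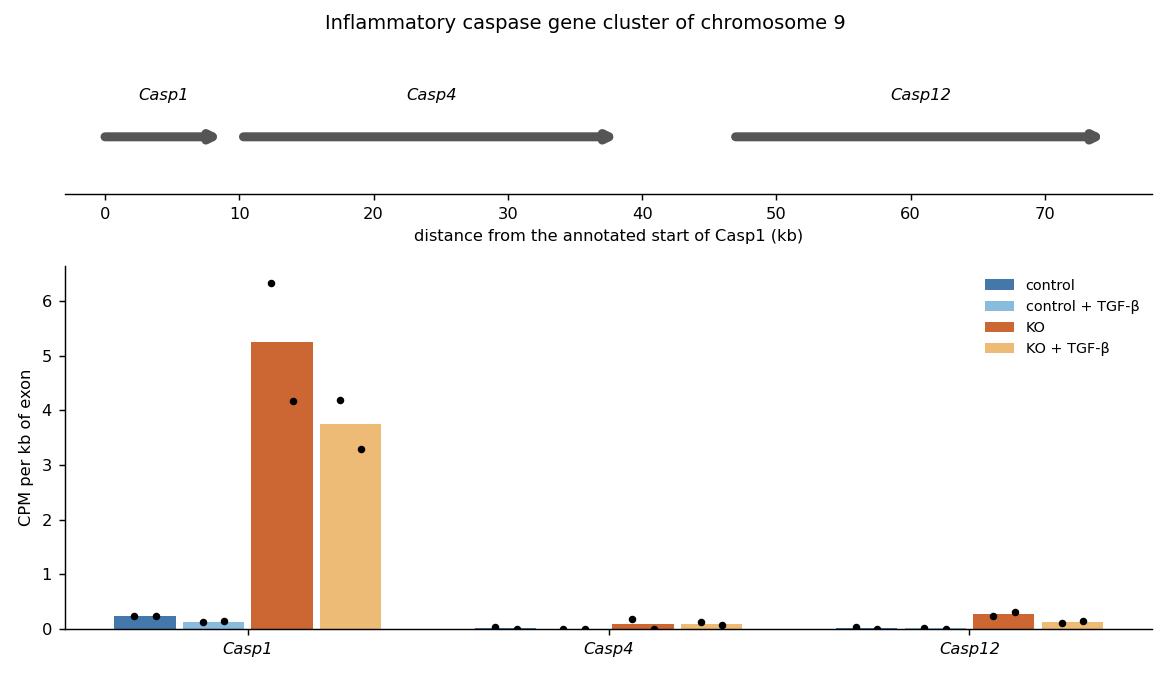
Top, positions of *Casp1*, *Casp4* and *Casp12* in kb from the annotated start of *Casp1*, with arrows along the direction of transcription; bottom, CPM per kb of exon in each condition (bars, mean of 2 libraries; points, libraries). Only *Casp1* in the libraries labelled KO rises above 1 CPM per kb, while *Casp4* and *Casp12* reach at most 0.315 in any library.

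Divided by exon length, the members differed widely in level, with an order that was kept only in part between conditions. *Casp8* was highest in each condition, at 23.3 ± 4.74 CPM per kb (SD, n = 2) in control, 32.0 ± 4.22 in control_TGFb2h, 26.9 ± 3.19 in KO and 24.6 ± 2.84 in KO_TGFb2h, and it overlapped with no other member. In control cells *Casp2* and *Casp6* followed at 6.18 ± 0.826 and 6.01 ± 0.870 and overlapped with each other, before *Casp9* at 3.22 ± 0.0720. In the other conditions *Casp6* stood apart as the next after *Casp8*, at 8.02 ± 0.549 in KO and 9.56 ± 0.239 in KO_TGFb2h. *Casp1* was below *Casp9* without overlap in both control conditions. In KO it overlapped with *Casp2* (5.37 ± 0.233) and *Casp9* (3.89 ± 0.578), and in KO_TGFb2h, at 3.74 ± 0.637, it lay between *Casp9* (3.76 ± 0.174) and *Casp2* (3.70 ± 0.921) and overlapped with both. *Casp12* and *Casp4* were last in every condition.

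**Figure D2:**
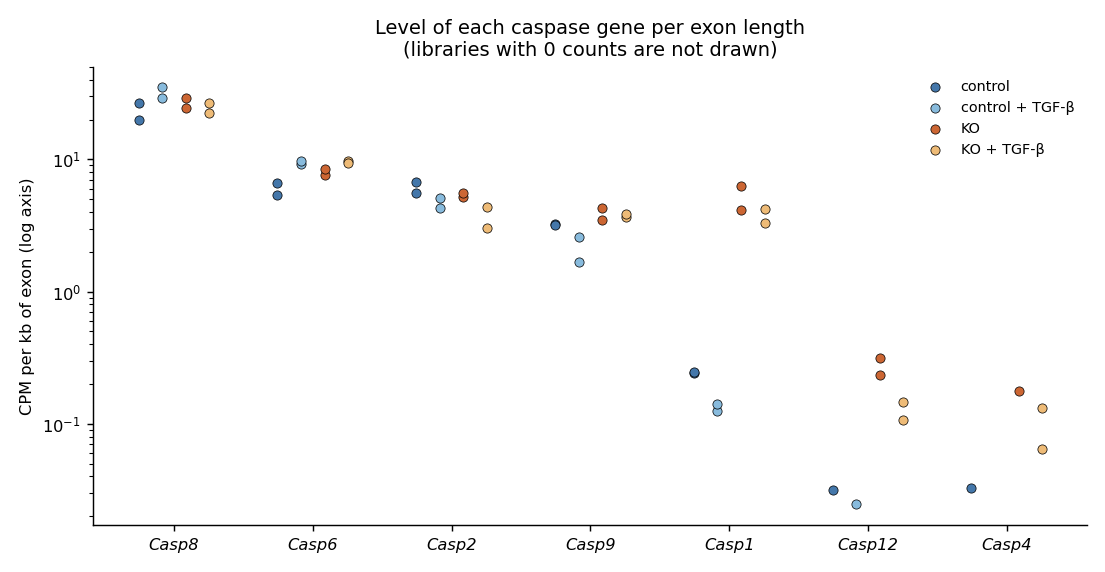
CPM per kb of exon on a log axis for each caspase gene, with a point for each library coloured by condition and libraries with 0 counts not drawn. *Casp8* lies highest at 20.0 to 35.0, and *Casp1* alone moves between the lowest and the middle levels, from 0.125 to 0.245 in the control libraries to 3.29 to 6.33 in those labelled KO.

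Between KO and control, none of the 4 tested members other than *Casp1* was called, where a call needed a p below 0.05 in edgeR's quasi-likelihood test after Benjamini-Hochberg adjustment together with a log2 fold change beyond 0.5 in size, nor was any of the 4 by DESeq2. In this comparison 1.83% of all genes tested were called. None of the 4 had an unadjusted p below 0.05. The libraries did not overlap for 3 of the 4, against 51.9% of all genes. *Casp6*, the executioner, was at 9.05 and 11.1 CPM in control and 12.8 and 14.1 in KO. Its log2 fold change was 0.42 (SE 0.22, adjusted p = 0.431, edgeR), while the median of the 641 tested genes of chromosome 3, where it lies (129604343 to 129617021), was -0.34. *Casp9* (chromosome 4, 141349527 to 141371891) was at 17.01 and 16.5 CPM in control and 18.1 and 22.3 in KO, a log2 fold change of 0.28 (SE 0.25, adjusted p = 0.651, edgeR). *Casp8* (chromosome 1, 58852218 to 58904347) was at 55.5 and 74.1 CPM in control and 68.6 and 81.1 in KO, and these libraries overlapped, with a log2 fold change of 0.21 (SE 0.19, adjusted p = 0.657, edgeR) that was 0.011 without replicate 1 of control and 0.43 without replicate 2. *Casp2* (chromosome 6, 42214984 to 42232507) was at 39.1 and 47.2 CPM in control and 36.4 and 38.7 in KO, a log2 fold change of -0.20 (SE 0.21, adjusted p = 0.706, edgeR). When libraries were left out, that of *Casp2* was -0.34 to -0.059, that of *Casp9* 0.11 to 0.41 and that of *Casp6* 0.27 to 0.57.

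After TGF-β, the KO_TGFb2h and control_TGFb2h libraries differed in 15% of all genes tested, and again none of the 4 members other than *Casp1* was called by edgeR, with 1 at an unadjusted p below 0.05 and 1 called by DESeq2. This was *Casp9*, the initiator caspase of the mitochondrial pathway. It was at 8.71 and 13.4 CPM in control_TGFb2h and 18.9 and 20.2 in KO_TGFb2h, without overlap, a log2 fold change of 0.82 (SE 0.25, adjusted p = 0.0511, edgeR). *Casp9* thus lay at the edge of the threshold, and it was called with a log2 fold change of 1.17 (adjusted p = 0.0241, edgeR) when replicate 2 of control_TGFb2h was left out, but was at 0.56 (adjusted p = 0.121, edgeR) without replicate 1, and its adjusted p was 0.147 (edgeR) with the treated libraries alone. Its exons share 94 bases with *Cela2a* on the other strand, and as no source says whether reads were counted by strand, those reads cannot be assigned. *Casp8* was at 80.7 and 97.3 CPM in control_TGFb2h and 62.7 and 73.8 in KO_TGFb2h. This was a log2 fold change of -0.38 (SE 0.19, adjusted p = 0.197, edgeR). *Casp2* was at 30.2 and 35.9 CPM in control_TGFb2h and 30.4 and 21.3 in KO_TGFb2h, with a log2 fold change of -0.35 (SE 0.21, adjusted p = 0.281, edgeR). That value was -0.62 without replicate 1 of KO_TGFb2h and -0.10 without replicate 2. *Casp6* was at 15.4 and 16.2 CPM against 16.3 and 15.7 CPM. Its log2 fold change was 0.022 (SE 0.21, adjusted p = 0.958, edgeR), beside a median of -0.34 for the tested genes of chromosome 3. Thus 2 of the 4 did not overlap, against 55.8% of all genes.

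**Figure D3:**
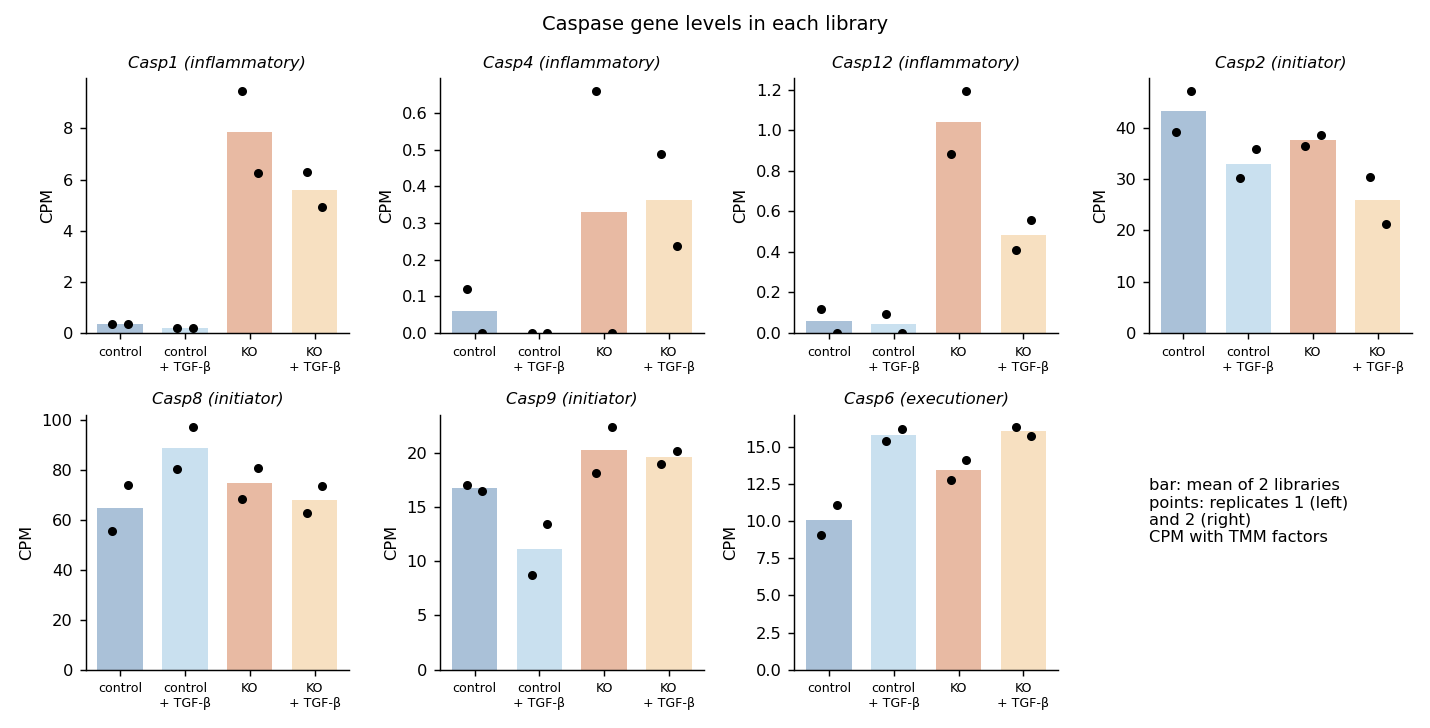
CPM of each caspase gene by condition, each panel with its own scale from 0 (bars, mean of 2 libraries; points, replicates 1 and 2 from left to right). *Casp1* reaches 4.93 to 9.48 CPM in the libraries labelled KO against at most 0.366 in the control libraries, whereas the panels of *Casp2*, *Casp8*, *Casp9* and *Casp6* vary by much smaller factors.

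The response to TGF-β was not used to choose the genes. In control cells TGF-β moved 9.16% of all genes tested past the thresholds. *Casp1*, which passed the filter through other libraries, is left out of the counts that follow. None of the other 4 tested caspases was called, in edgeR as in DESeq2. By edgeR's unadjusted p, 3 of the 4 were below 0.05, and by that of DESeq2, 2. The treated and untreated libraries did not overlap for any of the 4, against 53.7% of all genes. *Casp6* and *Casp8* were higher (27.4% of all genes) and *Casp2* and *Casp9* lower (26.3%). *Casp6* had the smallest p, with 9.05 and 11.1 CPM before and 15.4 and 16.2 CPM after treatment (log2 fold change 0.65, SE 0.22, adjusted p = 0.0961, edgeR). *Casp8* had a log2 fold change of 0.46 (SE 0.19, adjusted p = 0.159, edgeR), from 55.5 and 74.1 to 80.7 and 97.3 CPM. That log2 fold change was 0.26 to 0.68 when libraries were left out. *Casp9* had one of -0.60 (SE 0.25, adjusted p = 0.161, edgeR) and *Casp2* one of -0.39 (SE 0.21, adjusted p = 0.266, edgeR). That of *Casp9* was -0.33 without replicate 1 of control_TGFb2h and -0.94 (adjusted p = 0.0547, edgeR) without replicate 2, and that of *Casp2* ranged from -0.52 to -0.24 when libraries were left out. *Casp1*, at 3 and 3 against 2 and 2 counts, had a log2 fold change of -0.83 with an SE of 0.75, and the ratio of its summed counts, 0.546, had an exact 95% counting interval of 0.113 to 2.30, so that a fall could not be told from no change at this depth.

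In the libraries labelled KO, 6.82% of all genes were called after TGF-β and again none of the 5 caspases by edgeR or DESeq2, with 1 at an unadjusted p below 0.05 by either. This was *Casp2*, at 36.4 and 38.7 CPM before and 30.4 and 21.3 CPM after treatment, without overlap (log2 fold change -0.54, SE 0.21, adjusted p = 0.169, edgeR). The value was -0.79 without replicate 1 of KO_TGFb2h and -0.28 without replicate 2. *Casp6* did not overlap either, at 12.8 and 14.1 against 16.3 and 15.7 CPM (log2 fold change 0.25, SE 0.22, adjusted p = 0.542, edgeR), so that 2 of the 5 were without overlap, against 56.6% of all genes. *Casp1*, well counted in these libraries, was at 9.48 and 6.25 CPM before and 6.28 and 4.93 CPM after treatment. The libraries of *Casp1* overlapped, with a log2 fold change of -0.47 (SE 0.37, adjusted p = 0.490, edgeR). *Casp8* had a log2 fold change of -0.14 (SE 0.19, adjusted p = 0.727, edgeR) and *Casp9* of -0.054 (SE 0.24, adjusted p = 0.923, edgeR).

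The responses of the genotypes were also compared directly. The difference was called for 0 of all genes by edgeR, which is 0% of those tested, and for 30 by DESeq2. None of the 4 tested caspases other than *Casp1* was called by either, with 0 of the 4 at an unadjusted p below 0.05. For *Casp8* the log2 difference was -0.59 (SE 0.27, adjusted p = 0.581, edgeR), and -0.81 to -0.39 when libraries were left out. For *Casp9* it was 0.54 (SE 0.35, adjusted p = 0.691, edgeR), and 0.30 to 0.91. For *Casp1*, with few counts in control cells, it was 0.36 (SE 0.79). This error leaves room for a large difference either way, and a call was hardly possible.

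**Figure D4:**
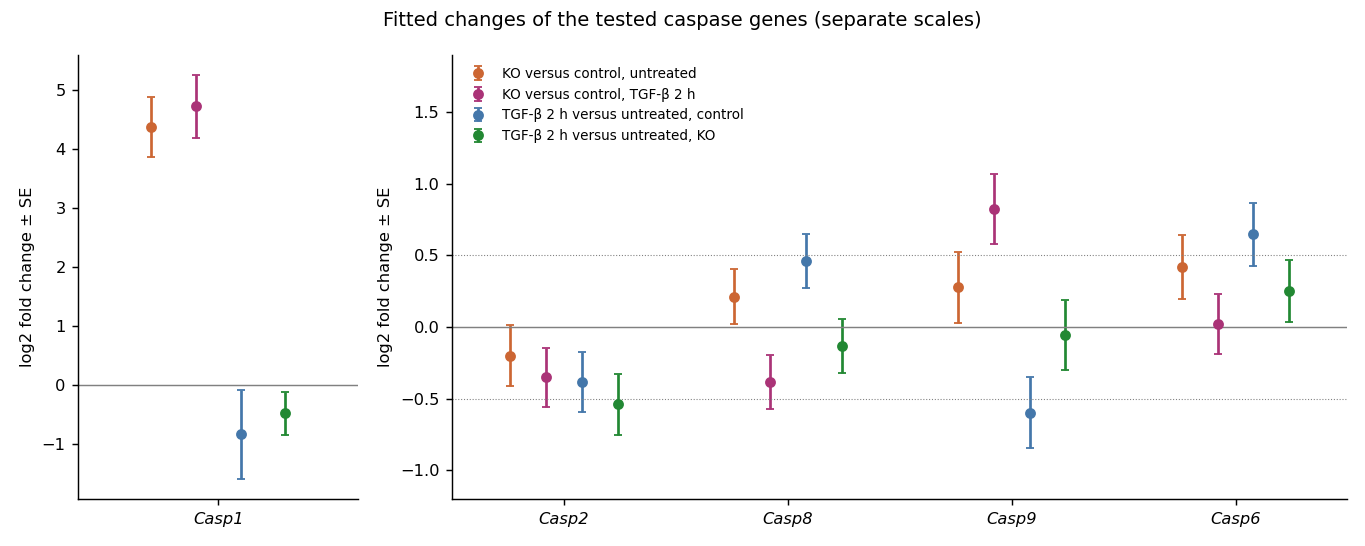
Log2 fold change with its SE in each comparison, on separate scales for *Casp1* (left) and for *Casp2*, *Casp8*, *Casp9* and *Casp6* (right, dotted lines at an absolute value of 0.5). *Casp1* lies above 4 in both genotype comparisons, and among the other members *Casp9* between the treated genotypes has the largest estimate, 0.82.

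The partners of the caspases were counted from lists of their pathways. Of the 26 genes of inflammasomes and pyroptosis, 12 were tested. Between KO and control 4 were higher and 8 lower, with a median log2 fold change of -0.075 against 0.018 for all genes. None of the 12 was called there by edgeR, beside only 1.83% of all genes. *Pycard*, the adaptor that links sensors to caspase-1, and *Il1b*, a cytokine it matures, had 0 counts in all 8 libraries, which allows up to 0.238 to 0.661 CPM. *Gsdmd*, the pore-forming substrate, was at 216 and 210 CPM in control and 221 and 175 in KO (log2 fold change -0.11, adjusted p = 0.828, edgeR). The cytokine gene *Il18* was at 1.45 and 3.66 CPM in control and 3.09 and 5.05 in KO (log2 fold change 0.70, adjusted p = 0.565, edgeR). The libraries of *Gsdmd* and of *Il18* overlapped between the untreated genotypes. After TGF-β, where 55.8% of all genes did not overlap, neither did these: *Gsdmd* was at 321 and 242 CPM in control_TGFb2h and 180 and 204 in KO_TGFb2h (log2 fold change -0.55, adjusted p = 0.0652, edgeR), and *Il18* at 3.56 and 5.71 against 7.42 and 6.75 CPM (0.61, adjusted p = 0.373, edgeR). Between the treated genotypes, where 15% of all genes were called, 1 of the 12 was called, *Gsdme*, listed as Dfna5, with a log2 fold change of -2.21 (SE 0.62, adjusted p = 0.0405, edgeR). That call, at 5 to 30 counts per treated library, was lost in 7 of the 8 fits that left out a library, all but that without replicate 1 of control_TGFb2h, at values of -2.54 to -1.74. It was also lost with DESeq2 (adjusted p = 0.0641), with the replicate block (0.0672, edgeR) and with the treated libraries alone (0.0903, edgeR).

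The partners of the initiators were counted next. The gene of the PIDDosome scaffold that activates caspase-2, *Pidd1* (listed as Lrdd), fell after TGF-β in both genotypes. It went from 24.5 and 19.9 to 9.28 and 8.68 CPM in control cells (log2 fold change -1.30, SE 0.26, adjusted p = 0.0167, edgeR) and from 16.1 and 24.6 to 9.37 and 8.90 CPM in the libraries labelled KO (-1.17, SE 0.26, adjusted p = 0.0271, edgeR). The call in control cells was lost without replicate 1 of control (-1.15, adjusted p = 0.153, edgeR) and without replicate 2 (-1.44, adjusted p = 0.0568, edgeR), and that in the libraries labelled KO held only in the fits that left out a control_TGFb2h library and was lost in the other 6, at -1.42 to -0.81. *Cradd*, the adaptor between this scaffold and caspase-2, had a log2 fold change of 0.17 (adjusted p = 0.796, edgeR) in control cells and of -0.086 (adjusted p = 0.911, edgeR) in the libraries labelled KO.

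Of the 9 genes of the apoptosome and the inhibitors of apoptosis, 8 were lower in KO than in control and 1 higher (the list median was -0.17 on the log2 scale, against 0.018 for all genes), and none was called there (1.83% of all genes) or between the treated genotypes (15%), where *Apaf1* had an adjusted p of 0.0435 (edgeR) but a log2 fold change of -0.49, short of the threshold. *Apaf1*, the scaffold of the apoptosome on which caspase-9 is activated, was at 69.2 and 69.7 CPM in control, 55.8 and 56.3 in control_TGFb2h, 59.1 and 63.0 in KO, and 41.5 and 38.2 in KO_TGFb2h. Its fall after TGF-β in the libraries labelled KO was called (log2 fold change -0.62, SE 0.14, adjusted p = 0.0330, edgeR), a call that was lost in the 6 fits without a library of control, KO or KO_TGFb2h. Of the 16 genes of death receptors and their complexes, 12 were tested and none was called between KO and control. *Fadd*, the adaptor of caspase-8, was at 18.8 and 15.7 CPM in control and 13.2 and 9.84 in KO (log2 fold change -0.60, adjusted p = 0.278, edgeR). *Cflar*, which encodes the caspase-8 inhibitor cFLIP, was at 77.6 and 81.7 CPM in control and 101 in both KO libraries (log2 fold change 0.35, adjusted p = 0.346, edgeR). Between the treated genotypes 1 of the 12 was called higher and 3 lower, beside 15% of all genes. The 3 with the smallest p were the death receptor gene *Tnfrsf21* (log2 fold change 0.64, adjusted p = 0.0250, edgeR), *Casp8ap2*, which encodes a caspase-8 binding protein (-1.07, adjusted p = 0.0346, edgeR), and *Mlkl*, which encodes the effector of necroptosis (-1.004, adjusted p = 0.0362, edgeR). With the replicate block *Tnfrsf21* kept its call, and those of *Casp8ap2* (adjusted p = 0.0524, edgeR) and *Mlkl* (adjusted p = 0.0608, edgeR) were lost. Of the 8 fits that left out a library, 3, 4 and 3 kept these calls, and with the treated libraries alone none of them was called. The fourth call was the death receptor gene *Fas*, named after its values were seen (-1.09, adjusted p = 0.0498, edgeR), and it was lost in all 8 of these fits, at -1.54 to -0.73, and with the treated libraries alone. Among 8 executioner substrates and genes of DNA fragmentation, 2 were called higher between the treated genotypes, *Acin1* (log2 fold change 0.73, adjusted p = 0.0116, edgeR) and *Panx1* (0.73, adjusted p = 0.0399, edgeR). *Acin1* kept its call in 7 of the 8 fits, all but that without replicate 2 of KO_TGFb2h (0.68, adjusted p = 0.0716, edgeR), and *Panx1* in 1, that without replicate 2 of control_TGFb2h. With the treated libraries alone both calls were lost, at adjusted p = 0.0665 and 0.132 (edgeR). That of *Panx1* was also lost with the replicate block (adjusted p = 0.0608, edgeR). *Acin1* was also called lower after TGF-β in control cells (-0.57, adjusted p = 0.0386, edgeR), at -0.68 to -0.45 when libraries were left out. This call was lost with the replicate block (adjusted p = 0.0633, edgeR), with the compared libraries alone (0.112, edgeR) and with thinned counts (0.0689, edgeR).

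**Figure D5:**
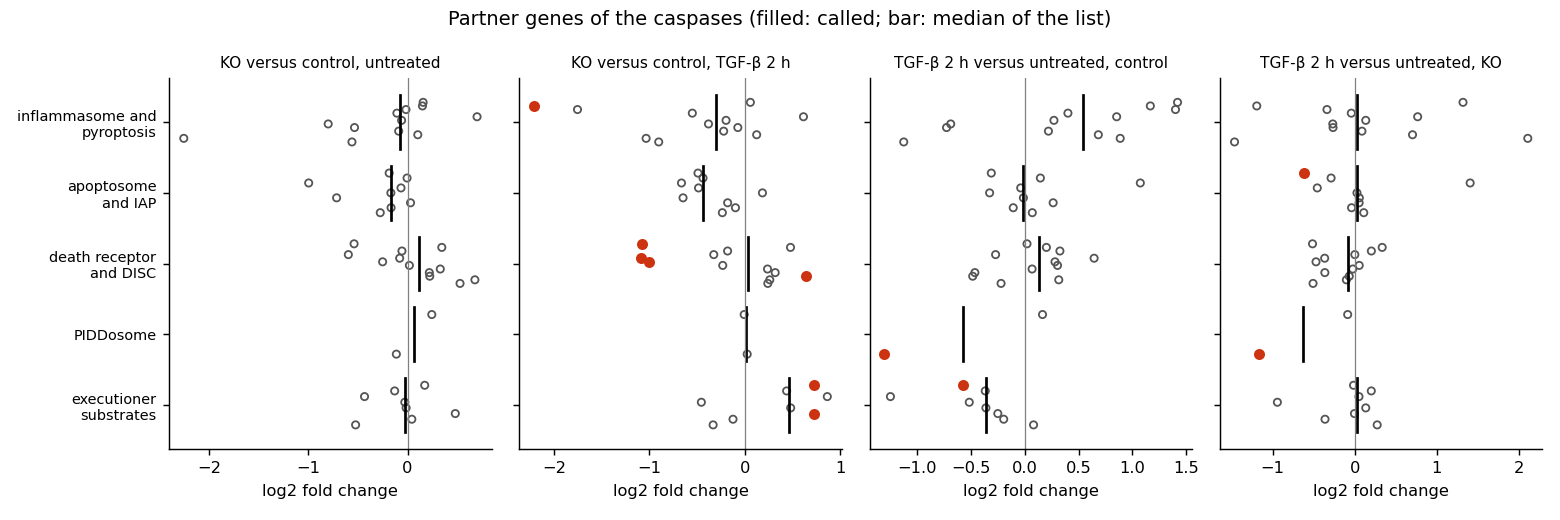
Log2 fold change of each tested partner gene (points) by pathway list in the comparisons of genotype and of TGF-β, with filled points for called genes and a bar at the median of each list. No point is filled between KO and control, where 1.83% of all genes tested were called. *Pidd1* is the filled point of the PIDDosome after TGF-β in both genotypes.

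To place the pattern of *Casp1*, its log2 CPM, centred over the 8 libraries, was compared with that of 13027 other tested genes by the mean absolute difference, a description without a test. The nearest were *F5* (coagulation factor V), *Clmn*, *Sprr1b* (a cornified envelope protein), *Klhl13* and *Spats2l*, at 0.34 to 0.43 against a median of 1.89. *F5* had 1 and 2 counts in control, 0 and 0 in control_TGFb2h, 14 and 18 in KO, and 52 and 21 in KO_TGFb2h. All its libraries labelled KO were above all its control libraries, which follows from its choice by likeness to *Casp1*. *Klhl13* was at 4.34 and 4.03 CPM in control, 6.09 and 7.09 in control_TGFb2h, 47.6 and 58.5 in KO, and 49.5 and 44.9 in KO_TGFb2h. *Casp4* and *Casp12*, below the filter, were not among the genes compared.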

How the data were processed

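The authors deposited raw counts of reads per gene, whole numbers for 37310 genes and 8 libraries, all of which were used. The paper names subjunc alignment to mm10 and mm9, removal of duplicates and DESeq2, whereas the submitters' processing notes list HISAT2, limma and mm10. How reads were assigned to genes, and whether by strand, is not given in the sources used here. The methods call the replicates biological without saying what was separate, and p-values measure the spread between these libraries. The gene identifiers are those of GENCODE vM1 (NCBIM37), which gave symbols, positions and exon lengths. Genes passing filterByExpr were kept, CPM used TMM factors, and a model of the 4 groups was fitted with edgeR 4.0.16 in R 4.3.3 (glmQLFit, glmQLFTest, Benjamini-Hochberg adjustment over 13028 genes). Calls required adjusted p below 0.05 together with a log2 fold change beyond 0.5 in size, and the difference of responses was called by the adjusted p alone. SE is the absolute log2 fold change divided by the square root of F. Depth was 4297832 to 13574397 counts, so that 3 counts equal 0.238 to 0.661 CPM.

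Every caspase of the family was named in every library. Partners were named where called, with at most 3 for each list and comparison, or where they act directly with a member. The genes near *Casp1* and the 5 most like it were also named. The family and lists were chosen with earlier results of these data known. Alternatives were DESeq2 1.42.0, RLE factors, other filters, a replicate block, fits of the compared libraries alone, thinned counts, dropping the fold change threshold and leaving out each library in turn. The method was tested on simulated data. Some other genes of the pathway are not reported here.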

Additional observations from a re-analysis of the deposited data

How the results depend on the processing

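With 2 libraries per group, the spread rests mostly on what genes share, and a lone library left after leaving out its partner is assumed to vary like the other groups. The number of caspases called, counted without *Casp1* in the genotype comparisons, was 0 in every comparison and setting, except between the treated genotypes, where *Casp9* was called (1 of the 4 members other than *Casp1*, and 1 of 6 without a filter) with DESeq2, without a filter, with thinned counts and with the replicate numbers of KO_TGFb2h exchanged in the block, a pairing chosen after seeing the data. Leaving out each library gave 0 to 1 there. *Casp9* in KO after TGF-β had a log2 fold change of 0.0059 without a filter and of -0.19 to 0.12 when libraries were left out, and *Casp8* there of -0.24 to 0.0027. The difference of responses of *Casp2* was 0.065 with thinned counts and -0.40 to 0.12 when libraries were left out. Same-numbered libraries deviated from their group means with correlations across genes of 0.098 (KO and control), -0.47 (treated genotypes), 0.30 (control) and -0.0092 (KO). These values do not show a pairing by number, and they cannot exclude pairs under other numbers. With the replicate block 0 caspases, again without *Casp1* in the genotype comparisons, were called in every comparison. With the KO_TGFb2h numbers exchanged in the block, 2809 genes were called between the treated genotypes, against 1959 without a block. The cause of these shifts was not tested. Over all genes, calls between KO and control numbered 238 and were 150 with the replicate block, 428 with DESeq2, 756 without a filter, 804 with the untreated libraries alone and 42 to 390 with libraries left out. Between the treated genotypes they went from 1959 to 410 with the treated libraries alone, and from 477 to 2762 with libraries left out. After TGF-β they went from 1194 to 2021 without a filter and 470 with the compared libraries alone in control cells, and from 889 to 1832 without a filter in KO, with 145 to 1484 and 136 to 1381 when libraries were left out. The difference of responses went from 0 to 30 with DESeq2, 211 without a filter, and 4 and 6 without replicate 1 or 2 of control_TGFb2h.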
